A study of Mus musculus with 8 samples.

Results

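The wild-type macrophage baseline consists of the 3 libraries labelled WT, chosen by that label alone, out of 8 libraries in the series. The series sequenced RNA of primary mouse macrophages of 3 genotypes, wild type, ABCG1KO and LysM-DKO, and its design text calls the last of these an epsin double knockout. The WT mice carried no stated transgene or deletion and, like the mice of the other genotypes, were on a normal diet. The tissue the macrophages came from, any culture or stimulus, and the strain, sex and age of the mice were not given in the sources used here, nor whether the 3 libraries came from separate mice. Differences between the libraries may therefore be biological or technical, and with 1 group there was no comparison to test. All values below are descriptions of these 3 libraries, named WT 1, WT 2 and WT 3.

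Macrophages are phagocytes that take up dying cells, microbes and modified lipoproteins and degrade them in lysosomes, acidic compartments filled with proteases, glycosidases and lipases. Cholesterol set free there is esterified and stored in lipid droplets or exported through transporters of the ABC family to acceptors such as apolipoprotein E. Macrophages of different organs and activation states share a core of identity genes and differ in surface receptors, antigen presentation and cytokine genes.

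Counts assigned to genes came to 37462500 in WT 1, 39401905 in WT 2 and 41166088 in WT 3. Levels are reported as CPM, the usual scaling of a count by the summed counts in genes of its library, and levels of different genes are compared as RPKM, which is CPM per kilobase of exon. A count of 0 allows up to 3 counts, or 0.0729 to 0.0801 CPM, and this limit covers counting error only. Of 24421 gene symbols, 10939 were at 1 CPM or more in each library, 9676 (39.6%) had at most 3 counts in each and 7954 had no count in any. In the mean of the libraries, 8201 symbols (33.6%) reached 10 CPM and 1787 (7.32%) reached 100 CPM. Errors given as ± are standard deviations over the 3 libraries (SD, n = 3).

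The labelled cell type was checked against macrophage markers. Lyz2, which encodes lysozyme M, was at 11843, 13923 and 14745 CPM in WT 1, WT 2 and WT 3. Apoe, which encodes apolipoprotein E, was at 12262, 10198 and 15128 CPM. They ranked 7 and 8 among all symbols by mean CPM, and the highest library of both was WT 3. Cd68, which encodes a lysosomal scavenger protein of phagocytes, was at 2424, 1953 and 2199 CPM. Csf1r, the receptor for the growth factor CSF1 on which most macrophages depend, was at 828, 1092 and 1550 CPM, lowest in WT 1 and highest in WT 3. All 24 genes of the macrophage identity list were at 10 CPM or more in the mean and 22 were at 100 CPM or more, beside 33.6% and 7.32% of all symbols. The list included the transcription factor genes Spi1 (392, 373 and 397 CPM) and Cebpa (238, 209 and 349 CPM). The 2 genes under 100 CPM were Aif1 (11.7, 28.8 and 10.1 CPM) and Cebpb (53.5, 81.8 and 68.5 CPM), named after their values were seen. The median level of the list was 182 RPKM.

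The most abundant messages encoded lysosomal proteins, ferritin and secreted products of phagocytes. Psap, which encodes the precursor of the saposins, activators of lysosomal sphingolipid breakdown, had the most counts, with 36815, 33036 and 30758 CPM. Ctsd, the aspartic protease cathepsin D, followed with 27954, 25018 and 24983 CPM. Gpnmb, a transmembrane glycoprotein of lysosomes and melanosomes, was at 25465, 22160 and 30313 CPM. The highest and lowest library of Psap differed 1.197-fold, those of Ctsd 1.12-fold and those of Gpnmb 1.37-fold. Ctsb, the cysteine protease cathepsin B, was at 20357, 19914 and 18374 CPM. The ferritin heavy chain gene Fth1 was at 17453, 15182 and 17293 CPM, and the light chain gene Ftl1 at 17649, 14778 and 14346 CPM. Together the chains form ferritin, the iron store of the cell.

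The 10 genes of highest mean took 17.9% of all counts in genes, and 18.7%, 17.3% and 18.0% when the top 10 were taken in each library. After the genes above, Mmp12, the macrophage metalloelastase, was at 8231, 10396 and 6423 CPM. Ctss, the cathepsin that processes the invariant chain of MHC class II, was at 8648, 6462 and 7599 CPM. Lpl, lipoprotein lipase, was at 6967, 6412 and 6004 CPM, and Lgals3, galectin 3, at 7325, 5780 and 5673 CPM. Of the 25 genes with the most counts, Spp1, which encodes osteopontin, was the gene with the widest spread, at 4769, 4507 and 1689 CPM with WT 3 low. Ctsl, the cysteine protease cathepsin L, came next, at 4124, 8111 and 5120 CPM with WT 2 high. The remaining members of the 25 were Eef1a1, Mpeg1, Actb, Cd36, Vim, Itm2b, Prdx1, Mfge8, Lamp1, Lipa and Anpep, at means of 2583 CPM (Anpep) to 6029 CPM (Eef1a1).

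**Figure D1:**
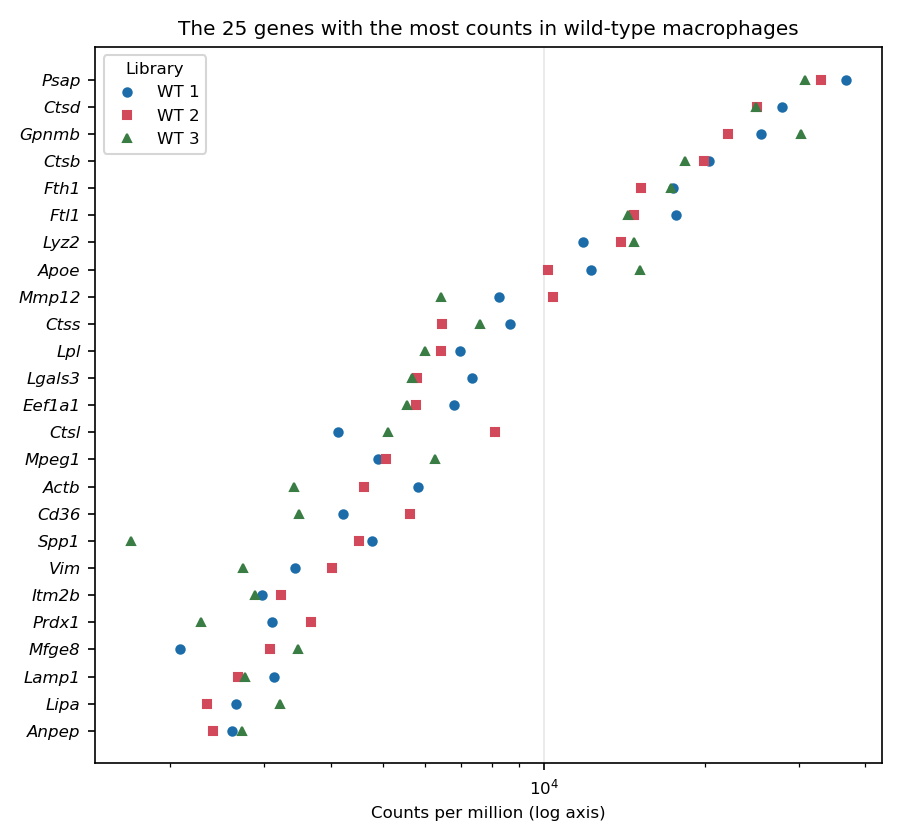
CPM (log axis) of the 25 genes with the most counts, ordered by their mean, with 1 symbol per library for WT 1, WT 2 and WT 3. The highest and lowest library differed from 1.11-fold (Ctsb) to 2.82-fold (Spp1). Spp1 was lower in WT 3 (1689 CPM) than in WT 1 and WT 2 (4769 and 4507 CPM).

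Per exon length the order changed. Ftl1 led at 16106 ± 1854 RPKM, followed by Psap at 12222 ± 1115 RPKM and Ctsd at 12217 ± 802 RPKM, 2 values that differ by less than their spread. Fth1 (10682 ± 814 RPKM) and Lyz2 (10261 ± 1137 RPKM) were also within each other's spread, and Apoe followed at 6817 ± 1347 RPKM. Among the 25 genes with the most counts, 17 were also among the 25 of highest RPKM. Genes with short messages entered this second list, among them B2m, the light chain of MHC class I, at 2575 ± 588 RPKM, and Tyrobp, the signalling adaptor of many myeloid receptors, at 1652 ± 236 RPKM. Cyba, a subunit of the phagocyte NADPH oxidase, was at 1482 ± 206 RPKM, and Cst3, the secreted cathepsin inhibitor cystatin C, at 1327 ± 126 RPKM. Reads shared between genes may bear on a few of these levels. Of the 50-base stretches of the longest Ftl1 transcript, 90.6% also occurred in transcripts of another gene. The share was 60.6% for Eef1a1, 36.6% for Ctsd and 15.4% for Lyz2. Ctsd had 1 partner, Gm49369, and whether it overlaps Ctsd or was counted here was not checked. The partner of Lyz2 was Lyz1, which was at 483, 567 and 592 CPM, and the counts of such pairs are uncertain.

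Lysosomal genes made up a large part of the profile. The 98 genes of the 5 lysosome lists together took 14.1%, 13.3% and 12.9% of the counts in WT 1, WT 2 and WT 3, compared with 2.84%, 2.32% and 2.30% for 84 ribosomal protein genes. These are shares of counts, not corrected for gene length, and do not give numbers of messages. Reads at several loci were not counted, and sequence shared by ribosomal protein genes was not measured, so their share is uncertain. These lists held 7 of the 25 genes with the most counts. The promoters of some of these genes carry the sequence bound by TFEB, TFE3 and MITF, transcription factors of lysosomal genes. Its core is CACGTG, and the extended palindrome shown here is the 8-base form TCACGTGA. The 120 bases before the start site are shown for Ctsd (chr7:142387828-142387947, minus strand), for the lysosomal calcium channel gene Mcoln1 (chr8:3500399-3500518, plus strand) and for Lamp1 (chr8:13159041-13159160, plus strand), a major lysosomal membrane protein, as examples of 1 extended palindrome and of repeated cores. Sequences are from RefSeq, build GRCm38.p6, 5′ to 3′ with respect to the gene; capitals mark TCACGTGA in Ctsd and Mcoln1 and CACGTG in Lamp1, and a further CACGTG in Mcoln1 is left in lower case.

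Ctsd: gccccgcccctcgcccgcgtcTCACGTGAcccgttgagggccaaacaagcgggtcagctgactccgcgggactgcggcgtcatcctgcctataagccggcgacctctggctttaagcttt
Mcoln1: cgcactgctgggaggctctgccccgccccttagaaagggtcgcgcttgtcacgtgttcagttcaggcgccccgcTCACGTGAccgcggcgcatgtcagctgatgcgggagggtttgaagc
Lamp1: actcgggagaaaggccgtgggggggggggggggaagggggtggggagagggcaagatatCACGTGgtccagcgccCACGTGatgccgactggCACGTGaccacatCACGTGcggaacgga

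The capitals begin 99 bases before the start site in Ctsd and 46 bases before it in Mcoln1, and at 61, 45, 28 and 15 bases before it in Lamp1. In windows of 300 bases, 250 before and 50 after the start site, CACGTG (its own reverse complement) occurred in 21 of the 79 lysosome-list genes matched by symbol (26.6%), in 12.8% of the genes of 10 CPM or more and in 9.17% of all 17224 matched genes. TCACGTGA, which contains CACGTG, occurred in 9 of the 79 genes (11.4%), in 2.62% of the genes of 10 CPM or more and in 1.46% of all matched genes. A longer palindrome of 10 bases, with G before and C after TCACGTGA, occurred in 1 of the 79 genes (1.27%). It occurred in 1.01% of the genes of 10 CPM or more and in 0.517% of all matched genes. The longer form is rare, and 1 gene is too few to show an excess in the lysosome lists. A match describes these letters only and does not show binding. The factors themselves were transcribed: Tfe3 was at 159, 147 and 153 CPM, Tfeb at 114, 82.5 and 108 CPM and Mitf at 79.5, 105 and 108 CPM.

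The cathepsin list was uneven. Of 16 genes, 13 were at 10 CPM or more, and the median of all 16 was 261 RPKM. Ctsd stood at 12217 RPKM, Ctss at 5574 ± 805 RPKM and Ctsb at 4122 ± 219 RPKM, followed by Ctsz at 1597 ± 205 RPKM and the asparaginyl endopeptidase gene Lgmn at 1119 ± 185 RPKM. At the other end, Ctsg, a protease of neutrophil granules, had no count in any library and Ctsw, a protease of lymphocytes, at most 4 counts. The highest library exceeded the lowest more than 2-fold for 2 of the 13 genes, beside 6.63% of all genes of 10 CPM or more, and such genes are called variable below. Ctsk, known from bone-resorbing osteoclasts, was at 281, 154 and 440 CPM, and Ctsc, which activates granule proteases, was at 209, 359 and 107 CPM.

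All 32 glycosidase, lipase, sulfatase and cofactor genes were at 10 CPM or more and 26 were at 100 CPM or more. Beside Psap, the highest were Lipa, the acid lipase that hydrolyses cholesteryl esters (2652, 2338 and 3215 CPM), Hexa, a subunit of the hexosaminidase that degrades gangliosides (1804, 1290 and 1738 CPM), and Npc2, which binds free cholesterol in the lysosome (1945, 1938 and 1767 CPM). Glb1, the lysosomal beta-galactosidase, was the list's 1 gene with more than a 2-fold range among libraries, at 181, 328 and 104 CPM. All 16 lysosomal membrane protein genes were at 10 CPM or more. None had such a range, beside 6.63% of all genes of that level. WT 3 was the highest library for 8 of the 16, beside 42.2% of all genes of that level. The list was led by Lamp1 (1280 ± 106 RPKM) and the tetraspanin gene Cd63 (1015 ± 222 RPKM).

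The vacuolar ATPase, the proton pump that acidifies the lysosome, was represented by 18 of 25 subunit genes at 10 CPM or more. For subunits with several isoforms the data name those used. Atp6v0d2, the isoform of the d subunit known from osteoclasts and macrophages, was at 1366, 1242 and 1641 CPM and Atp6v0d1 at 300, 222 and 247 CPM. Atp6v1b2 was at 1431, 1393 and 1281 CPM, while Atp6v1b1, an isoform of kidney and inner ear, had no count. Tcirg1, the a3 isoform, was at 982, 1089 and 1183 CPM, Atp6v0a1 at 977, 770 and 891 CPM and Atp6v0a4 at no more than 1 count. Of the 25 genes, 5 had at most 3 counts in each library. None of the 18 genes at 10 CPM or more ranged over 2-fold, beside 6.63% of all genes of that level. WT 2 was the lowest library for 14 of the 18, beside 34% of all genes of that level.

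The most abundant genes of lipid handling concern uptake, storage and export. Cd36, a scavenger receptor for oxidised lipoproteins and fatty acids, was at 4202, 5612 and 3486 CPM. Lpl, which releases fatty acids from lipoproteins, was at 1570 ± 117 RPKM. The fatty acid binding protein genes Fabp5 (1448 ± 223 RPKM) and Fabp4 (465 ± 83.7 RPKM) and Plin2, the coat protein of lipid droplets (944 ± 22.01 RPKM), were also high. Plin2 was nearly the same in the 3 libraries, at 1807, 1807 and 1735 CPM. The adipocyte droplet genes Plin1, Plin4, Cidea and Cidec had no count in any library.

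In cholesterol export, Apoe was followed by Pltp, which transfers phospholipids between lipoproteins (186 ± 38.2 RPKM). Abcg1, which moves cholesterol to high-density lipoprotein, was at 369, 371 and 323 CPM, or 51.9 ± 3.94 RPKM. Abca1, which loads lipid-poor apolipoprotein A-I, was at 177, 434 and 214 CPM, or 26.8 RPKM in the mean, and was the 1 gene of the 8 at 10 CPM or more whose range exceeded 2-fold, with WT 2 high. Abcg4, Abcg5, Abcg8 and Apoa1 had at most 5 counts each. The sterol sensors of the nuclear receptor family were present: Nr1h2 (LXR beta) at 108, 112 and 112 CPM, Nr1h3 (LXR alpha) at 93.4, 62.9 and 74.9 CPM and their partner Rxra at 138, 153 and 170 CPM. Pparg, a receptor for fatty acid derivatives, was at 96.5, 68.2 and 85.8 CPM. Of 35 nuclear receptor genes, 12 were at 10 CPM or more and 8 had at most 3 counts in each library, beside 33.6% and 39.6% of all symbols.

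For cholesterol within the cell, Soat1, which esterifies cholesterol, was at 674, 656 and 819 CPM, and its paralog Soat2 at 0.160, 1.02 and 0.170 CPM. Nceh1, which hydrolyses the esters, was at 438, 448 and 517 CPM, and Npc1, which exports cholesterol from lysosomes with Npc2, at 288, 350 and 466 CPM. None of the 11 genes of this list at 10 CPM or more ranged over 2-fold, beside 6.63% of all genes of that level. The sterol synthesis list had 23 of 24 genes at 10 CPM or more with a median of 15.3 RPKM, led by Msmo1 (72.7 ± 18.3 RPKM), Fdps (59.8 ± 29.3 RPKM) and Hmgcs1 (50.6 ± 5.55 RPKM). Fdps, which makes farnesyl diphosphate, was at 135, 72.0 and 53.7 CPM. Of the 23 genes, 22 were highest in WT 1, beside 33.1% of all genes of 10 CPM or more, although 3 of them ranged over 2-fold. Scap, which escorts the transcription factor of sterol synthesis genes, was the exception, with its highest value in WT 3.

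Genes of fatty acid oxidation were at moderate levels, with 18 of 23 at 10 CPM or more and a median of 28.2 RPKM. None of the 18 ranged over 2-fold, beside 6.63% of all genes of that level. Acadl, a long-chain dehydrogenase of mitochondria, led at 148, 119 and 107 CPM. Among genes of eicosanoids and related lipid mediators, Pla2g7, which inactivates platelet-activating factor, was highest (360, 743 and 516 CPM), followed per length by Alox5ap, the partner protein of 5-lipoxygenase (190, 147 and 126 CPM). Alox5 itself, the lipoxygenase, was at 0.801, 1.27 and 0.437 CPM.

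**Figure D2:**
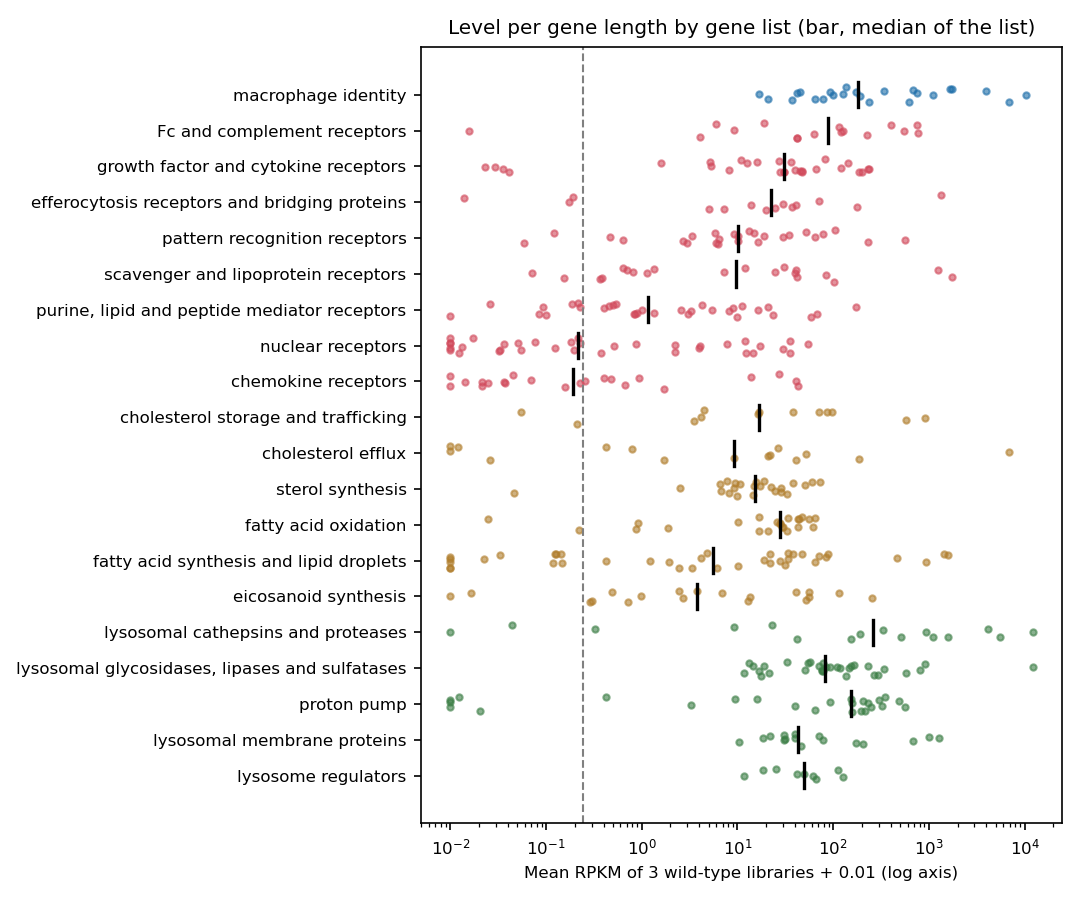
Mean RPKM of the 3 wild-type libraries (log axis, with a small offset so that genes without counts can be drawn) for every member of 20 gene lists. Points are genes, blue for identity, red for receptors, brown for lipid and green for lysosome lists, black bars are list medians and the dashed line is the median of all symbols with a length. The cathepsin (261 RPKM), identity (182 RPKM) and proton pump (155 RPKM) medians lie highest, and the chemokine and nuclear receptor medians (0.183 and 0.204 RPKM) lowest.

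Receptors for immune complexes, complement and growth factors were broadly transcribed. Of 16 Fc and complement receptor genes, 15 were at 10 CPM or more, with a median of 88.6 RPKM over the list. Itgb2, the common beta chain of the leukocyte integrins, was at 2504, 2152 and 2171 CPM. Its alpha chain Itgax (CD11c) was at 1074, 1875 and 2230 CPM, lowest in WT 1, and Itgam (CD11b) at 535, 850 and 494 CPM, highest in WT 2. Of the longest Itgam transcript, 72.4% of 50-base stretches occurred in 1 other annotated gene, Gm49368. Whether that gene overlaps Itgam or was counted here was not checked, so the effect on the Itgam counts is unknown. Fcgr3, a low-affinity receptor for immunoglobulin G, was at 624, 952 and 660 CPM, and C3ar1, the receptor for the complement fragment C3a, at 810, 1085 and 1020 CPM. Of the 15 genes at 10 CPM or more, 8 (53.3%) ranged over 2-fold among the libraries, beside 6.63% of all genes of that level. WT 2 was the highest library for 11 of the 15, beside 24.8% of all genes.

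Of 28 growth factor and cytokine receptor genes, 24 were at 10 CPM or more and 2 of these ranged over 2-fold. WT 1 was the lowest library for 14 of the 24, beside 40.1% of all genes of that level. That count was 11 with other scalings of library size (TMM or RLE) and 10 after centring on genes of like exon length. The excess thus depended on scaling and length. After Csf1r (237 ± 74.8 RPKM), the highest were Tnfrsf1b, a receptor for tumour necrosis factor (231 ± 64.7 RPKM), Csf2ra, the alpha chain of the GM-CSF receptor (201 ± 19.9 RPKM), and Il10rb, a chain of the interleukin 10 receptor (188 ± 24.1 RPKM). Flt3 and Kit, receptors of progenitors and dendritic or mast cells, were at no more than 6 counts. Among pattern recognition receptors, 20 of 26 genes were at 10 CPM or more. Clec7a, the beta-glucan receptor dectin 1, was at 1221, 1357 and 1266 CPM, and Clec4d, another C-type lectin, at 274, 323 and 332 CPM. Tlr13, a sensor of bacterial ribosomal RNA, was at 277, 489 and 516 CPM and was the highest of the Toll-like receptor genes. Mrc1, the mannose receptor, was at 304, 570 and 171 CPM, with WT 2 high and WT 3 low.

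In the list of scavenger and lipoprotein receptors, Cd68 and Cd36 (1254 ± 306 RPKM) stood over Msr1, the class A scavenger receptor (102 ± 32.4 RPKM), and Lrp1, a large receptor for lipoproteins and protease complexes, which was at 941, 1075 and 2147 CPM with WT 3 high. Marco, another class A receptor, was at 1.23, 2.79 and 0.0243 CPM. Among genes for the uptake of dying cells, Mfge8, the bridge between phosphatidylserine and integrins, was at 2090, 3070 and 3474 CPM. Its integrin partner Itgb5 was at 508, 431 and 875 CPM, and the receptor kinase Mertk at 92.7, 179 and 211 CPM, lowest in WT 1. In this list, 6 of the 11 genes at 10 CPM or more (54.5%) ranged over 2-fold, beside 6.63% of all genes of that level. Timd4, a phosphatidylserine receptor of resident macrophages, was at no more than 0.787 CPM.

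Of 22 chemokine receptor genes, 4 were at 10 CPM or more, beside 33.6% of all symbols, among them Cxcr4 (74.8, 56.4 and 100 CPM), the atypical receptor Ccrl2 (70.4, 59.7 and 81.0 CPM) and Ccr1 (103, 199 and 42.0 CPM). Ccr1, a receptor for inflammatory chemokines, was highest in WT 2 and lowest in WT 3. The monocyte receptor Ccr2 was at 3.20, 5.03 and 1.21 CPM. Of 32 genes for receptors of nucleotides, lipids and peptides, 15 were at 10 CPM or more, led by P2rx4, an ATP-gated channel (494, 438 and 490 CPM), P2ry6, a receptor for UDP (137, 139 and 124 CPM), and Ptafr, the receptor for platelet-activating factor (176, 254 and 211 CPM).

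The epsins, endocytic adaptors that the design text names for another genotype, were unequal at baseline. Epn1 was at 209, 187 and 179 CPM, or 74.7 RPKM in the mean. Epn2 was at 7.45, 8.15 and 4.66 CPM, or 1.47 RPKM in the mean. Epn3 had 5 counts in WT 1 and 0 in WT 2 and WT 3.

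Genes that mark macrophages of particular tissues were mixed and gave no single match. Of 10 resident peritoneal macrophage genes, 3 were at 10 CPM or more: Cd5l, a secreted scavenger protein, at 160, 352 and 40.6 CPM, Vsig4, a complement receptor, at 19.9, 53.1 and 7.89 CPM, and Gata6, the transcription factor of large peritoneal macrophages, at 14.7, 15.6 and 6.61 CPM. All 3 were highest in WT 2 and lowest in WT 3, beside 24.8% and 25.8% of all genes of that level. Vsig4 and Gata6 were under 10 CPM in WT 3 and reached that mean through the other libraries, which favours WT 3 as the lowest. Of 8 alveolar macrophage genes, Fabp4, Pparg and Siglecf (15, 11.9 and 27.7 CPM) were at 10 CPM or more, while Car4, Cidec and Krt79 had at most 1 count in a library. Of 6 Kupffer cell genes, 3 were at 10 CPM or more, namely Cd5l and Vsig4 as above and Id3, a transcriptional regulator (24.1, 15.2 and 60.9 CPM), while Clec4f had no count. The peritoneal, alveolar and Kupffer lists thus had 30%, 37.5% and 50% of their genes at that level, beside 33.6% of all symbols. None of the 6 microglial genes reached 10 CPM, and Sall1 had no count. Ly6c2, of inflammatory monocytes, had at most 10 counts, whereas Fn1, fibronectin, from the monocyte list, was at 784, 1422 and 864 CPM.

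Most markers of other lineages were at low levels or without counts. Of 157 marker genes on 18 lists, 153 were matched in the files. Of these, 65 had at most 3 counts in each library, 43 had no count in any and 115 had a mean under 1 CPM. The first of these shares is close to that of all symbols, of which 39.6% had at most 3 counts in each library. A mean of 1 CPM or more was reached by 11513 of all 24421 symbols. Of the 8 hepatocyte genes, all had at most 3 counts and 7 had none, so that a level up to the limit of 0.0729 to 0.0801 CPM remains possible. The globin genes Hba-a1, Hba-a2, Hbb-bs and Hbb-bt had no count, nor had the granulocyte genes S100a9, Mpo and Epx, the T cell genes Cd8a and Cd8b1, or the endothelial genes Tek, Emcn and Cldn5. Reads at several loci were not counted and sequence shared between the globin genes was not measured, so their 0 counts are uncertain. The whole red cell list, which holds them, summed to 0.43, 0.25 and 0.12 CPM. The NK cell list summed to 0.29, 1.70 and 0.70 CPM and the epithelial list to 0.53, 0.63 and 0.36 CPM.

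On the 18 lists, 17 markers had a mean of 10 CPM or more, and 21 were between 1 and 10 CPM. The fibroblast list was the highest, summing to 699, 760 and 865 CPM. Col1a1 and Col1a2, the chains of type I collagen, were at 188, 183 and 425 CPM and at 323, 361 and 335 CPM. Dcn, the proteoglycan decorin, was at 62.5, 66.8 and 20.02 CPM, and Pdgfra, a growth factor receptor of fibroblasts, at 39.3, 64.6 and 19.6 CPM. Both were lowest in WT 3, the library in which Col1a1 was highest, while Lum and Dpt were at no more than 2.28 CPM. Mesothelial genes were lower: Upk3b was at 17.1, 20.4 and 1.97 CPM and Wt1 at 12.1, 12.7 and 3.98 CPM, and the keratin genes Krt8, Krt18 and Krt19 were at no more than 1.201 CPM. In bulk RNA, a small number of cells of another type and a low level in all cells cannot be told apart, and neither can fewer cells and less RNA per cell.

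B cell genes were faint and moved together. Cd79a and Ms4a1 were at 8.78 and 6.42 CPM in WT 2 and at no more than 2.62 CPM in WT 1 and WT 3. Cd22, an inhibitory lectin counted on the same list, was at 100, 104 and 106 CPM and did not follow this order. The T cell genes Cd3d, Cd3e and Cd3g were at no more than 0.584 CPM. Other markers of 10 CPM or more included Csf3r, the receptor for granulocyte growth factor (76.8, 90.6 and 123 CPM), the co-stimulatory receptor Cd28 (40.6, 22.5 and 25.9 CPM), Vwf, von Willebrand factor (70.3, 67.7 and 91.3 CPM), and Acta2, smooth muscle actin (56.4, 35.6 and 117 CPM). Among sex-linked genes, Xist, transcribed from the inactive X chromosome, was at 72.0, 178 and 188 CPM, and the 4 Y-linked genes had at most 1 count in a library.

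Libraries were alike for most genes and apart for some. Among the 8201 genes with a mean of 10 CPM or more, the highest library exceeded the lowest by a median of 1.28-fold, and for 6374 genes by less than 1.5-fold. The ratio exceeded 2 for 544 genes (6.63%). For 111 genes it exceeded 4 and for 26 genes 10. The level of 10 CPM is a mean of the 3 libraries, so a gene can reach it through 1 high library. Counts of the highest or lowest library within a list can be favoured by this filter. The spread was wider than counting error at every level: at 100 to 300 CPM the median coefficient of variation was 11.9%, beside 1.32% from counting alone, and at 1000 CPM or more it was 13.5%, beside 0.382%. The steadiest genes of 100 CPM or more included Ccni, a cyclin family member (203, 202 and 201 CPM), and the translation factor gene Eif5 (207, 208 and 209 CPM).

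Each library contributed variable genes of its own. Taking for each of the 544 genes the library farthest from the other two on the log2 scale, WT 1 was the low library for 206 genes, WT 3 the low library for 124 and WT 2 the high library for 110. WT 3 was the high library for 63 genes, WT 2 the low one for 21 and WT 1 the high one for 20. Among the 100 genes of widest spread the order differed: WT 3 was low for 44, WT 2 was high for 32 and WT 1 was low for 18.

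**Figure D3:**
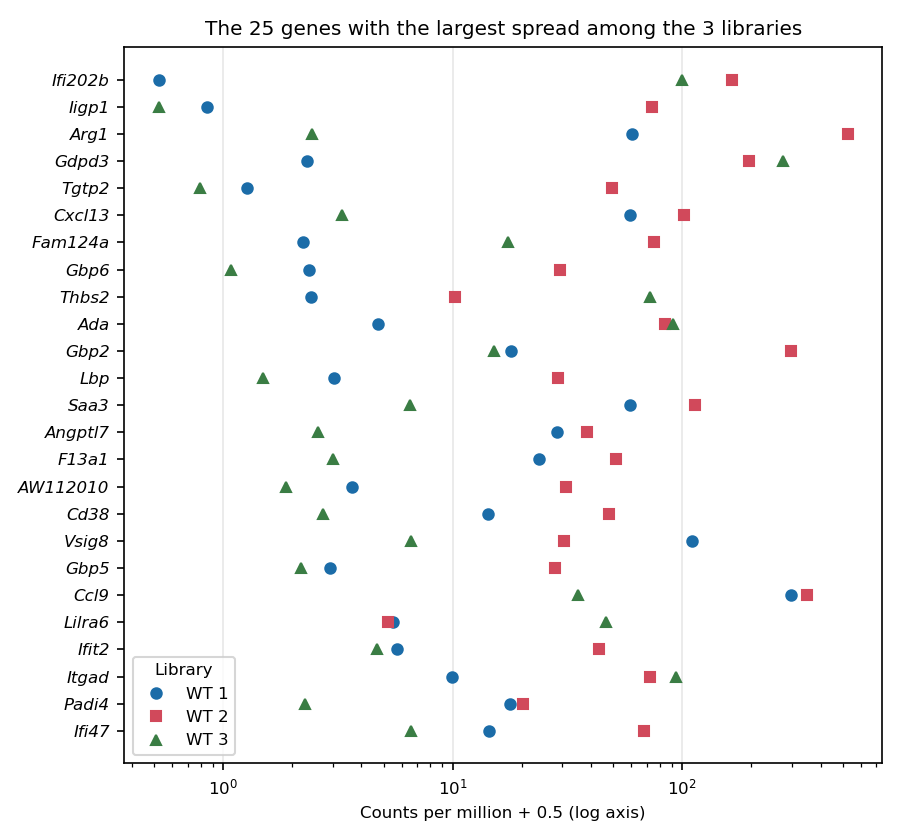
CPM plus 0.5 (log axis) in WT 1, WT 2 and WT 3 of the 25 genes with the largest standard deviation of log2 values among the genes of 10 CPM or more. Ifi202b and Gdpd3 are low in WT 1 alone, Gbp2 and Iigp1 are high in WT 2 alone, and Ccl9 and Saa3 are low in WT 3 alone.

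WT 2 stood above the others in antigen presentation. All 7 MHC class II genes of 10 CPM or more, of 11 on the list, ranged over 2-fold and were highest in WT 2 and lowest in WT 3, beside 6.63%, 24.8% and 25.8% of all genes of that level. After values were centred on genes of like exon length, all 7 were still highest in WT 2, while 5 were lowest in WT 3 and 2 in WT 1. Cd74, the invariant chain, was at 431, 1985 and 344 CPM. H2-Aa, an alpha chain, was at 110, 481 and 96.7 CPM, and H2-Ab1, a beta chain, at 96.9, 474 and 94.8 CPM. WT 1 and WT 3 were close to each other and WT 2 was more than 4 times higher. Ciita, the master regulator of these genes, was at 4.80, 38.7 and 4.47 CPM. It reached a mean of 10 CPM only through WT 2, which fixed its highest library. Over all 11 genes of the list the median was 33.4, 97.5 and 24.6 CPM in WT 1, WT 2 and WT 3. The B cell genes above, of cells that also carry MHC class II, were highest in the same library, and their part in these values was not tested.

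Interferon-induced genes followed the same library. Of 12 genes of the interferon list at 10 CPM or more, out of 20, 10 ranged over 2-fold and 11 were highest in WT 2, beside 6.63% and 24.8% of all genes of that level. That level is a mean over the libraries, so genes could reach it through WT 2 alone, which favours WT 2 in this count. Over all 20 genes the median was 6.43, 25.9 and 7.41 CPM in WT 1, WT 2 and WT 3. Stat2, a transcription factor that interferons activate, was at 38.7, 123 and 48.9 CPM. Oas3, a sensor of double-stranded RNA, was the exception, at 13.6, 40.7 and 65.8 CPM. Among the 25 genes of widest spread were GTPase genes that defend against intracellular microbes. Gbp2 was at 17.4, 296 and 14.7 CPM, Iigp1 at 0.347, 73.5 and 0.0243 CPM and Tgtp2 at 0.774, 48.9 and 0.292 CPM. Tgtp2 shares 90.6% of its 50-base stretches with its neighbour Tgtp1, so the pair cannot be separated. Nos2, the inducible nitric oxide synthase, had 449 counts in WT 2 and 0 in WT 1 and WT 3, and the chemokine gene Cxcl9 was at 6.45 CPM in WT 2 and had 0 counts in the others.

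Some promoters of such genes hold short elements, a repeat of GAAA, any 2 bases and GAAA, bound by interferon regulatory factors, and TTCNNNGAA, the palindrome bound by STAT proteins. The 120 bases before the start site are given for 4 GTPase genes that were highest in WT 2, to show the elements found before their start sites: Gbp2 (chr3:142620543-142620662), Gbp7 (chr3:142530216-142530335), Igtp (chr11:58199436-58199555) and Irgm2 (chr11:58214857-58214976), all on the plus strand of GRCm38.p6, from RefSeq. These 4 were chosen after their values were seen. Capitals mark both elements, of which the Gbp2 window holds only the GAAA repeat, and TTTC, any 2 bases and TTTC is the GAAA repeat read on the opposite strand.

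Gbp2: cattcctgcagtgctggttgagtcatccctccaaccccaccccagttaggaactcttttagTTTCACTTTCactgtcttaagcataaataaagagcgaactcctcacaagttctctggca
Gbp7: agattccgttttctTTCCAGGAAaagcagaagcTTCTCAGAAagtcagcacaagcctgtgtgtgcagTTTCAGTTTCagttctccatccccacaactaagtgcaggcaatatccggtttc
Igtp: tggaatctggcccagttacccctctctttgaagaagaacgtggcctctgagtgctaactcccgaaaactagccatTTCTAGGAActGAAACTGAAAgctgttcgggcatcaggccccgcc
Irgm2: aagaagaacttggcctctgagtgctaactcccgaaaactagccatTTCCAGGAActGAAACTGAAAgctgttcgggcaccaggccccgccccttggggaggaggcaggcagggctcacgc

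Gbp7 was at 10.4, 60.6 and 13.04 CPM, Igtp at 16.1, 51.2 and 13.99 CPM and Irgm2 at 20.5, 59.3 and 20.1 CPM, so that in all 3 WT 1 and WT 3 were close and WT 2 high. In Igtp and Irgm2 both elements lie next to each other, 45 and 34 bases and 75 and 64 bases before the start site. Of the 110 variable genes with WT 2 high, 78 had a promoter in the table, and the GAAA repeat occurred on either strand in 17 of them (21.8%), beside 3.91% of all 17224 matched genes. TTCNNNGAA occurred in 17 (21.8%), beside 9.27% of all. Among the variable genes of other kinds, the GAAA repeat occurred in 10 of 93 with WT 3 low (10.8%), in 15 of 154 with WT 1 low (9.74%) and in none of the 15 with WT 1 high, 16 with WT 2 low or 47 with WT 3 high. The elements were sought in the same windows of 300 bases and could overlap each other. Of 14 interferon list genes with a promoter, 8 (57.1%) held the GAAA repeat.

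Alternative activation genes were also highest in WT 2. The list had 4 of 14 genes at 10 CPM or more, all 4 highest in WT 2 and lowest in WT 3, beside 24.8% and 25.8% of all genes of that level, and 3 ranged over 2-fold, beside 6.63%. Arg1, arginase 1, was at 59.7, 524 and 1.94 CPM, a 270-fold range. Clec10a, a galactose-binding lectin, was at 16.9, 47.1 and 4.40 CPM, and Mrc1 had the same order. Genes could reach a mean of 10 CPM through WT 2, which favours WT 2 in the count of highest libraries. Over all 14 genes the median was 1.52, 2.35 and 0.486 CPM in WT 1, WT 2 and WT 3. Retnla, Chil4 and Cd209d, other genes of the list, had at most 8 counts in a library.

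WT 3 was the low library for the genes of 10 CPM or more on the inflammatory list. Of 22 inflammatory genes, 6 were at that level, and all 6 were lowest in WT 3, beside 25.8% of all genes. Saa3 and Ccl2 were under 10 CPM in WT 3 and reached that mean through the other libraries. The filter thus favours WT 3 as the lowest. Over all 22 genes the median was 1.08, 6.08 and 0.498 CPM in WT 1, WT 2 and WT 3. Saa3, serum amyloid A3, was at 58.9, 114 and 6.05 CPM, and Ccl2, which attracts monocytes, at 32.8, 24.4 and 4.30 CPM. Il1rn, the interleukin 1 receptor antagonist, was at 128, 167 and 65.9 CPM. Outside the list, the chemokine gene Ccl9 was at 298, 350 and 34.7 CPM and its neighbour Ccl6, singled out after its values were seen, at 1099, 1990 and 211 CPM. Cxcl13, a B cell attractant, was at 59.0, 101 and 2.79 CPM. Classical cytokines were low throughout: Il6, Il12a, Il12b and Il23a had at most 3 counts, Il1b was at 0.0267, 1.27 and 0.656 CPM and Tnf at 5.10, 6.80 and 7.21 CPM. WT 3 was high for fewer genes, such as Thbs2, thrombospondin 2, at 1.92, 9.77 and 71.6 CPM.

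Cell cycle genes were ordered differently, with WT 1 high. Of 25 genes, 12 were at 10 CPM or more, of which 9 ranged over 2-fold, 11 were highest in WT 1 and 10 were lowest in WT 3. Of all genes of that level, these shares were 6.63%, 33.1% and 25.8%. Genes could reach that mean through WT 1, which favours WT 1 in this count. Over all 25 genes the median was 13.7, 8.07 and 4.18 CPM in WT 1, WT 2 and WT 3. Pcna, the sliding clamp of DNA replication, was at 413, 281 and 191 CPM, and Rrm2, a subunit of ribonucleotide reductase, at 23.4, 11.01 and 4.18 CPM. Mki67, the proliferation marker, was at 24.1, 25.5 and 8.38 CPM and was the gene not highest in WT 1. None of the 8 immediate early genes of 10 CPM or more ranged over 2-fold, beside 6.63% of all genes of that level. With a share that low, 8 genes are too few to set this list apart. Atf3, a stress-induced factor, was at 567, 562 and 575 CPM.

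**Figure D4:**
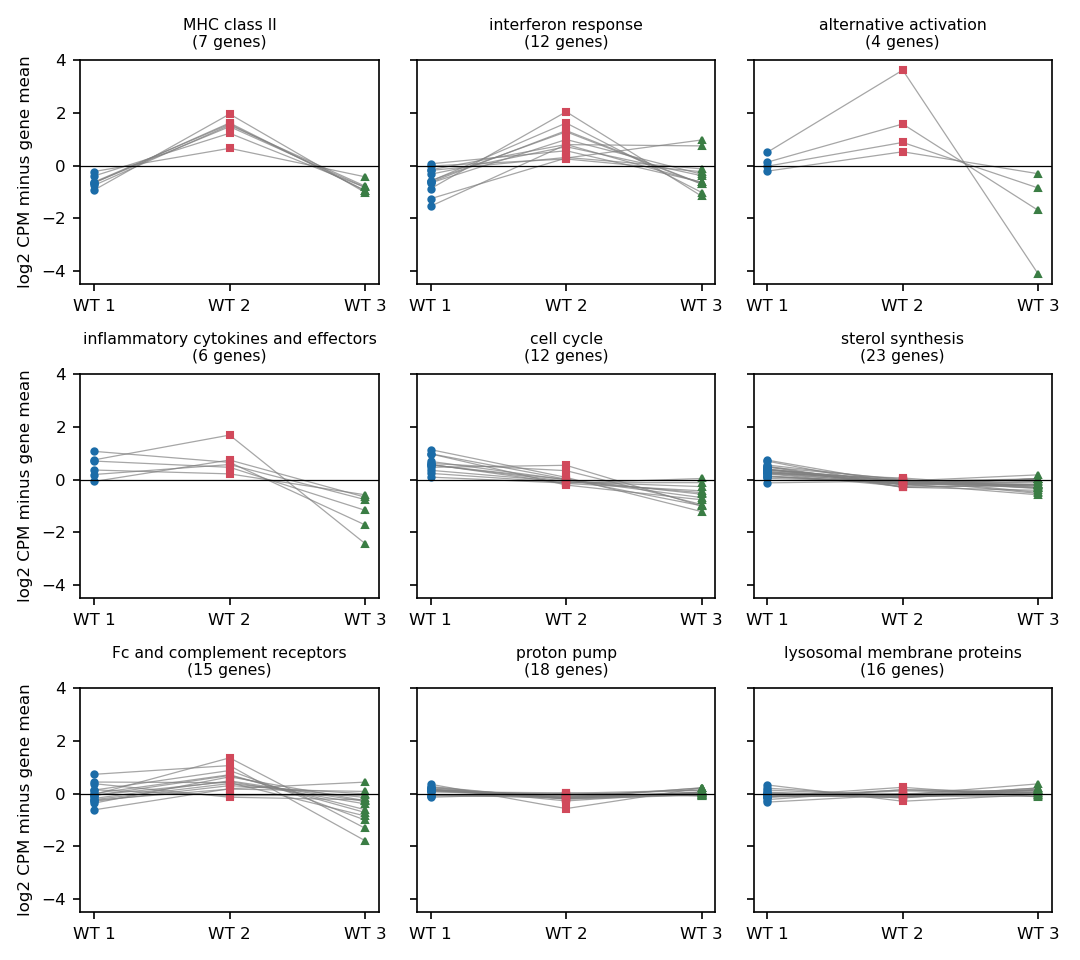
Log2 of CPM plus 0.5 minus the mean of the gene over the 3 libraries, for the genes of 10 CPM or more in 9 lists. Each grey line joins the 3 values of 1 gene and the order of libraries has no meaning. MHC class II genes are above 0 in WT 2 alone, inflammatory genes are lowest in WT 3, most sterol synthesis and cell cycle genes are highest in WT 1, and proton pump and lysosomal membrane genes stay near 0.

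WT 1 was set apart by a few genes that were far lower there than in WT 2 and WT 3. Ifi202b, which encodes a DNA-binding protein of the interferon-inducible PYHIN family, had 1 count in WT 1, 6472 in WT 2 and 4070 in WT 3. It was the gene of widest spread in the data. Gdpd3, a lysophospholipase D, was at 1.82, 196 and 275 CPM, and Ada, adenosine deaminase, at 4.22, 83.4 and 90.6 CPM. Itgad, the integrin alpha chain CD11d, was at 9.42, 71.8 and 93.4 CPM. In all, 5 genes had at most 3 counts in a library and 10 CPM or more in another: Ifi202b, with WT 1 at that limit, and Iigp1, Gbp4, Nos2 and Gm4951, with WT 3 and, for Nos2, also WT 1 at that limit.

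A second difference of WT 1 ran along transcript length. In 5 classes of 8182 genes by exon length, the median log2 deviation of WT 1 fell from 0.13 in the shortest class to -0.25 in the longest, while that of WT 2 rose from -0.08 to 0.09 and that of WT 3 from -0.04 to 0.16. Of the genes in the shortest class 4.88% were variable, and in the longest class 11.9%. The 206 genes with WT 1 low had a median exon length of 7247.5 bases, with 204 of them measured, beside 3431.5 bases over all genes. After log2 values were centred on genes of like length, a choice made after seeing the data, 420 genes exceeded 2-fold, 376 of them among the 517 that did so on the same scale without centring. The part of this trend in single genes low in WT 1 was not tested.

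**Figure D5:**
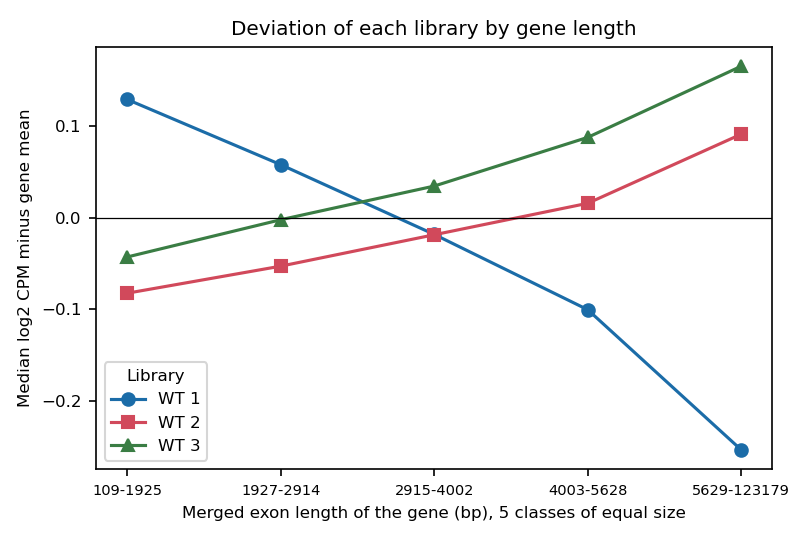
Median log2 of CPM plus 0.5 minus the gene mean, in WT 1, WT 2 and WT 3, over 5 equal classes of genes by merged exon length in base pairs. WT 1 goes from 0.13 in the shortest to -0.25 in the longest class and meets the other libraries near the third class.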

How the data were processed

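RNA sequencing of 3 wild-type macrophage libraries was analysed from raw counts per gene symbol, which the authors deposited in one file per library. Per the submitters' processing notes, the tools named are STAR 2.7.9a, TopHat, HTSeq 0.11.2, DESeq2 1.30.1 and limma, with build mm10, and their order and the strand setting are not given in the sources used here; overlapping and antisense genes are therefore uncertain. Reads in no feature (4.26 to 5.88%), in several genes (0.887 to 0.980%) or at several loci (2.83 to 3.00%) were left out of library sizes. CPM used summed gene counts, and RPKM divided CPM by merged exon length from GENCODE M21 on GRCm38 (23376 symbols matched by name, 651 by synonym, 394 without length). Shared sequence was counted as 50-base stretches of the longest transcript that occur in another GENCODE gene, whose position was not checked. No group comparison or test was made. Every pair of libraries differed by more than counting error (chi-square over its degrees of freedom, 92.7 to 118).

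Named genes were the 25 of highest CPM and of highest RPKM, up to 6 per list by level and its defining members, the 25 of largest SD of log2(CPM + 0.5) at 10 CPM or more, the 10 of smallest SD at 100 CPM or more, and Lyz2, Apoe, Cd68, Csf1r, Epn1, Epn2, Epn3 and Abcg1. Low, absent or exceptional list members, other variable genes, Lyz1, Xist and Cxcl9 were named after their values were seen. The members and lists were chosen with earlier results of these data known. Trac, Ighm, Igkc and Ly6g were not analysed here, and some list members are not reported here. The ratio rule was tried on simulated data with a smaller spread than these libraries, whose common coefficient of variation in edgeR was 22.0%. That trial is therefore not used here. Python 3.11.15, pandas 2.3.3, R 4.3.3 and edgeR 4.0.16 were used, the last for scaling factors and dispersions in alternatives.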

Additional observations from a re-analysis of the deposited data

How the results depend on the processing

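No paired analysis was possible because only 1 group was described. The count of variable genes moved with the filter on low values, from 544 to 1691 at a mean of 1 CPM or more, 274 at 30 CPM or more and 1759 with no filter and 0.5 added. It was 260 without WT 1, 328 without WT 2 and 257 without WT 3 (257 to 328), with fewer libraries in the ratio. TMM scaling gave 510, RLE scaling 514 and pseudocounts 520 and 503. The 65 lineage markers with at most 3 counts became 43 with 0 counts in each library and 115 with a mean under 1 CPM. Fatty acid oxidation genes highest in WT 1 went from 15 to 9, and proton pump genes from 14 to 9, after centring on length class. With that centring, the MHC class II (7), interferon (11) and inflammatory (6) counts stayed, and sterol synthesis went from 22 to 21. Growth factor receptor genes lowest in WT 1 went from 14 to 11 with TMM or RLE and to 10 with centring. Symbols at 1 CPM or more in each library were 10948 with TMM or RLE, beside 10939. Ranking by edgeR dispersion shared 91 of the 100 most variable genes. Of 204 list medians recomputed for 51 lists, 194 stayed within the SD over libraries. Most of these left out 1 library, which can seldom move a median by more than that SD. The count therefore does not show that the medians were stable. Without WT 2 the MHC class II median fell from 54.0 to 29.0 CPM and was still within that SD.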

Other observations

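Variable genes were counted in 6 stretches of the genome, which were chosen after their values were seen and are bounded here by their outermost genes of 10 CPM or more. On chromosome 3 (142493978 to 142638008, GRCm38), all 4 such genes, Gbp2, Gbp3, Gbp5 and Gbp7, ranged over 2-fold, beside 6.63% of all genes of that level. In the MHC class II stretch on chromosome 17 (34112023 to 34316674, GRCm38), 6 of 10 genes did so, as did both Gbp6 and Gbp9 on chromosome 5 (105077630 to 105293698, GRCm38) and both Ccl6 and Ccl9 on chromosome 11 (83572919 to 83593087, GRCm38).

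On chromosome 1 (172500047 to 173982744, GRCm38), 7 of 12 genes ranged over 2-fold, without a common order of libraries. Ifi202b and its family member Ifi203 (31.8, 116 and 82.9 CPM) were lowest in WT 1. Vsig8 (109, 30.2 and 6.07 CPM), the phosphatase gene Dusp23 (32.9, 11.5 and 5.10 CPM), the PYHIN gene Pyhin1 (20.05, 8.83 and 4.08 CPM) and the actin-binding Tagln2 (502, 326 and 230.4 CPM) were highest in WT 1 and lowest in WT 3. Slamf8, a receptor of the SLAM family, was at 166, 194 and 64.8 CPM. On chromosome 7 (126546455 to 128461717, GRCm38), 5 of 53 genes ranged over 2-fold, a share near the 6.63% of all genes of that level, among them Gdpd3 and the integrin alpha chain genes Itgad, Itgax and Itgal (19.2, 30.02 and 144 CPM), which were all lowest in WT 1.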
